A study of Mus musculus with 15 samples.

Results

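The hearts compared here came from mice given AAV9-VEGF-B and then doxorubicin (titles VEGF-B+DOX 1 to 5, here VEGFB_DOX) and from mice given PBS (PBS 1 to 5). They were taken by title, and make up 10 of the 15 arrays of the study. The other 5, from mice given doxorubicin alone (DOX), are set beside them. All mice were male C57Bl/6J animals of 10 weeks. PBS mice had received neither vector nor drug. In the VEGFB_DOX group AAV9-VEGF-B, an adeno-associated virus vector that carries the gene of vascular endothelial growth factor B, was given 7 days before the drug. Myocardium was collected 20 hours after the drug or PBS, and the total RNA of each sample was measured on 1 Illumina BeadChip array. Every VEGFB_DOX heart had received vector and drug, and a group with the vector alone or with an empty vector was not analysed here. The comparison therefore measured the sum of virus, VEGF-B and doxorubicin, whose parts cannot be told apart here, and the promoter of the vector is not given in the sources used here.

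VEGF-B is a member of the family of vascular growth factors that is made in large amounts by heart muscle. It binds the receptor VEGFR1 (gene Flt1) and the co-receptor neuropilin-1 (Nrp1) but not VEGFR2 (Kdr), the main growth receptor of endothelial cells, which answers to VEGF-A. In the heart it is known for its effects on coronary vessels and on the handling of fatty acids. Doxorubicin is an anthracycline that intercalates into DNA and traps topoisomerase II, which breaks DNA and activates p53, and its use in cancer is limited by damage to heart muscle.

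Values are log2 intensities as the authors deposited them. Of 45281 probes, 24861 lay above background on at least 5 of 15 arrays and were tested, and 20429 of these carry the symbols of 12750 genes. A difference is a log2 fold, VEGFB_DOX minus PBS, ± its standard error in one limma fit to the 15 arrays. A probe was called at a Benjamini-Hochberg adjusted p under 0.05, and the median standard error was 0.07. The median difference over all tested probes was -0.01. Where a list of genes is described, each gene stands for its brightest tested probe. In a bulk tissue, fewer cells of a type and less RNA per cell cannot be told apart.

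The first principal component held 28.7% of the variance and separated the VEGFB_DOX arrays, at 10.3 to 24.5, from the PBS arrays, at -15.6 to -5.80. The second, with 19.3%, set PBS 4, PBS 5, DOX 5 and VEGFB_DOX 5 (-19.4 to -15.0) apart from the other 11 arrays (-2.29 to 14.5), so it cut across the groups. The arrays set apart are the last samples in the order of the series, and they are not spread evenly over the groups compared. Whether they were handled apart is not given in the sources used here. VEGFB_DOX 3 and DOX 2 stood apart on several gene lists, as described below. Correlations between arrays of a group lay between 0.983 and 0.996. The tissue carried the marks of its label: all 17 ventricular cardiomyocyte markers lay above background on every array, and their summed linear signal was 256200 to 283100 on PBS and 256500 to 282400 on VEGFB_DOX arrays. None of these 17 genes was called higher, and the 1 called lower was Cmya5, a muscle gene, at -0.30 ± 0.07 (limma, adjusted p = 0.0122).

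The gene delivered by the vector was read by 1 probe. Vegfb read 12.88, 12.90, 12.95, 12.95 and 13.06 on PBS arrays and 12.82, 12.66, 12.78, 12.73 and 12.81 on VEGFB_DOX arrays, in array order. All 5 VEGFB_DOX values lay below all PBS values, by a small margin. The difference was -0.19 ± 0.06 (limma, adjusted p = 0.0449). With the groups fully apart the exact two-sided permutation p is by construction 0.00794, the smallest that 5 against 5 arrays allow. Its limma call ended under 15 of 26 alternative settings, among them 10 of 15 fits without 1 array, with differences of -0.20 to -0.15 where it ended. Whether the probe lies in the sequence that the vector carried is not known here. Flt1 read 11.93, 11.59, 11.58, 11.79 and 11.83 on PBS and 12.38, 12.27, 12.06, 12.14 and 12.14 on VEGFB_DOX arrays, without overlap. It rose by 0.45 ± 0.08 (adjusted p = 0.0014), and stood at 0.21 ± 0.08 in DOX minus PBS (adjusted p = 0.346). Another Flt1 probe did not pass, at 0.11 ± 0.07 (adjusted p = 0.377). The difference of Nrp1 was 0.29 ± 0.13 (adjusted p = 0.183), and it passed with only the 2 groups compared (adjusted p = 0.0235), without DOX 2 (0.0199) and without DOX 2 and VEGFB_DOX 3 (0.0479). The difference of Kdr, whose probe lay near background, was 0.05 ± 0.04 (adjusted p = 0.499). Of 10 tested ligands, receptors and neuropilins of the family 3 rose and 2 fell. Of all tested genes 8.74% rose and 5.87% fell. Vegfa, the ligand of VEGFR2, fell by 0.50 ± 0.14 (adjusted p = 0.03), and Nrp2, the neuropilin of veins and lymphatics, rose by 0.46 ± 0.12 near background (adjusted p = 0.0202), with overlapping groups for both genes. Another Vegfa probe fell by 0.63 ± 0.12, and the other 2 Nrp2 probes stood at 0.02 and 0.10. The Vegfa call ended with cyclic loess and without PBS 1, PBS 2, PBS 3, VEGFB_DOX 1, VEGFB_DOX 2 or VEGFB_DOX 5 (adjusted p up to 0.0906), and the Nrp2 call without PBS 4, VEGFB_DOX 1, VEGFB_DOX 2 or VEGFB_DOX 4 (up to 0.0641). The count of 3 rises was 1 without PBS 4, VEGFB_DOX 1 or VEGFB_DOX 2, and that of 2 falls was 0 without PBS 2, PBS 3, VEGFB_DOX 1 or VEGFB_DOX 2.

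In all, 2841 probes were called, 11.4% of those tested. Of these, 1671 were higher in VEGFB_DOX hearts (6.72%) and 1170 lower (4.71%), from 1192 and 864 genes with a symbol. By another measure, the 5 VEGFB_DOX and the 5 PBS values did not overlap on 2411 probes, 9.7% of those tested, among them 1188 of the probes called higher and 774 of those called lower. Large changes ran mostly upward. Rises of at least 2-fold were called on 79 probes (0.318%) and falls of that size on 3 (0.0121%). These came from 62 and 2 genes. Judged by the brightest probe of each gene alone, 59 genes rose (0.463%) and 2 fell (0.0157%) by that much. The median size of a call was 0.41 upward and -0.33 downward. The count of lower probes moved by more than 1.5 times without PBS 4 (748), VEGFB_DOX 1 (711) or VEGFB_DOX 2 (684). Without PBS 4, PBS 5, DOX 5 and VEGFB_DOX 5 together 2138 probes were called, and 2792 without DOX 2 and VEGFB_DOX 3. Set beside it, DOX against PBS gave 80 called probes (0.322%) and VEGFB_DOX against DOX 2383 (9.59%). These comparisons share arrays with the one described here, so their values are given side by side and not as separate evidence.

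**Figure D1:**
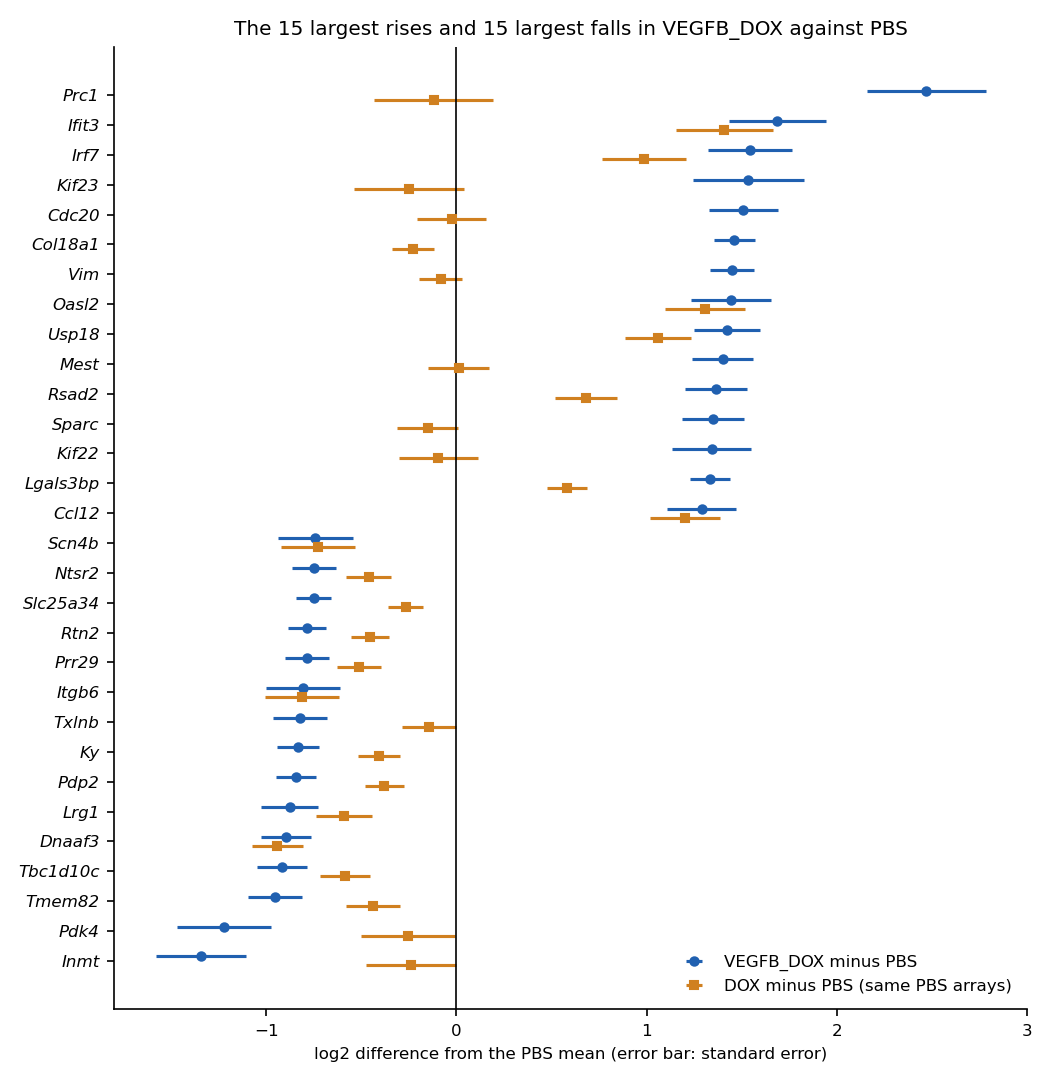
The 15 largest rises and 15 largest falls past the threshold in VEGFB_DOX against PBS (circles) among genes whose groups did not overlap and whose higher group lay wholly above background, with the difference of DOX from the same PBS arrays (squares). The horizontal axis is the log2 difference and bars are standard errors. Prc1 leads the rises at 2.47 and Inmt the falls at -1.35. The squares of Ifit3, Oasl2, Usp18, Ccl12, Dnaaf3 and Itgb6 lie at -0.81 or below or at 1.06 or above, and those of Prc1, Cdc20, Vim, Mest and Sparc between -0.15 and 0.01.

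Most markers of endothelial cells were higher in VEGFB_DOX hearts. Of 24 tested endothelial markers 18 rose and none fell, where 8.74% of all tested genes rose and 5.87% fell, and the median difference of the list was 0.63 against -0.01 over all genes. In 16 of the 24 the groups did not overlap, against 12.2% of all genes. Cdh5, which encodes the cadherin of endothelial junctions, read 10.53, 10.77, 10.78, 10.56 and 10.30 on PBS and 11.35, 11.63, 11.53, 11.86 and 11.67 on VEGFB_DOX arrays. It rose by 1.02 ± 0.11, or 2.03 times (limma, adjusted p = 1.14e-05), and its other probe rose by 0.92 ± 0.09. The junction gene Esam read 11.56, 11.61, 11.47, 11.48 and 11.42 on PBS and 12.33, 12.40, 12.22, 12.53 and 12.38 on VEGFB_DOX arrays. It rose by 0.86 ± 0.07 (adjusted p = 9.4e-07), and the gap between the groups, 0.61, was wider than the span of the PBS arrays (0.19) or of the VEGFB_DOX arrays (0.31). Icam2, an adhesion molecule of the endothelial surface, rose by 0.94 ± 0.09, the matrix glycoprotein gene Mmrn2 by 0.78 ± 0.08 and Egfl7, a protein that endothelial cells secrete into the vessel wall, by 0.81 ± 0.09. The brightest marker, the water channel gene Aqp1, missed the threshold at 0.28 ± 0.14 (adjusted p = 0.246). It read 13.17 to 13.26 on 4 VEGFB_DOX arrays, above every PBS array (12.66 to 12.85), and 12.51 on VEGFB_DOX 3, without which it passed at 0.42 (adjusted p = 0.0286).

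The summed linear signal of the 28 endothelial markers on the arrays was 37690 to 40320 on PBS, 38120 to 43150 on DOX and 55320 to 62910 on VEGFB_DOX arrays. The VEGFB_DOX sums lay above all others. Of the 28, Cyyr1, Ecscr and S1pr1 were above background on no array. The count of 18 became 17 without PBS 4, PBS 5, DOX 5 and VEGFB_DOX 5, stayed at 18 without DOX 2 and VEGFB_DOX 3, and ran from 16 to 19 in fits without 1 array. Relative to the PBS mean, the list mean was 0.52 to 0.61 on the VEGFB_DOX arrays and -0.07 to 0.03 on the DOX arrays.

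**Figure D2:**
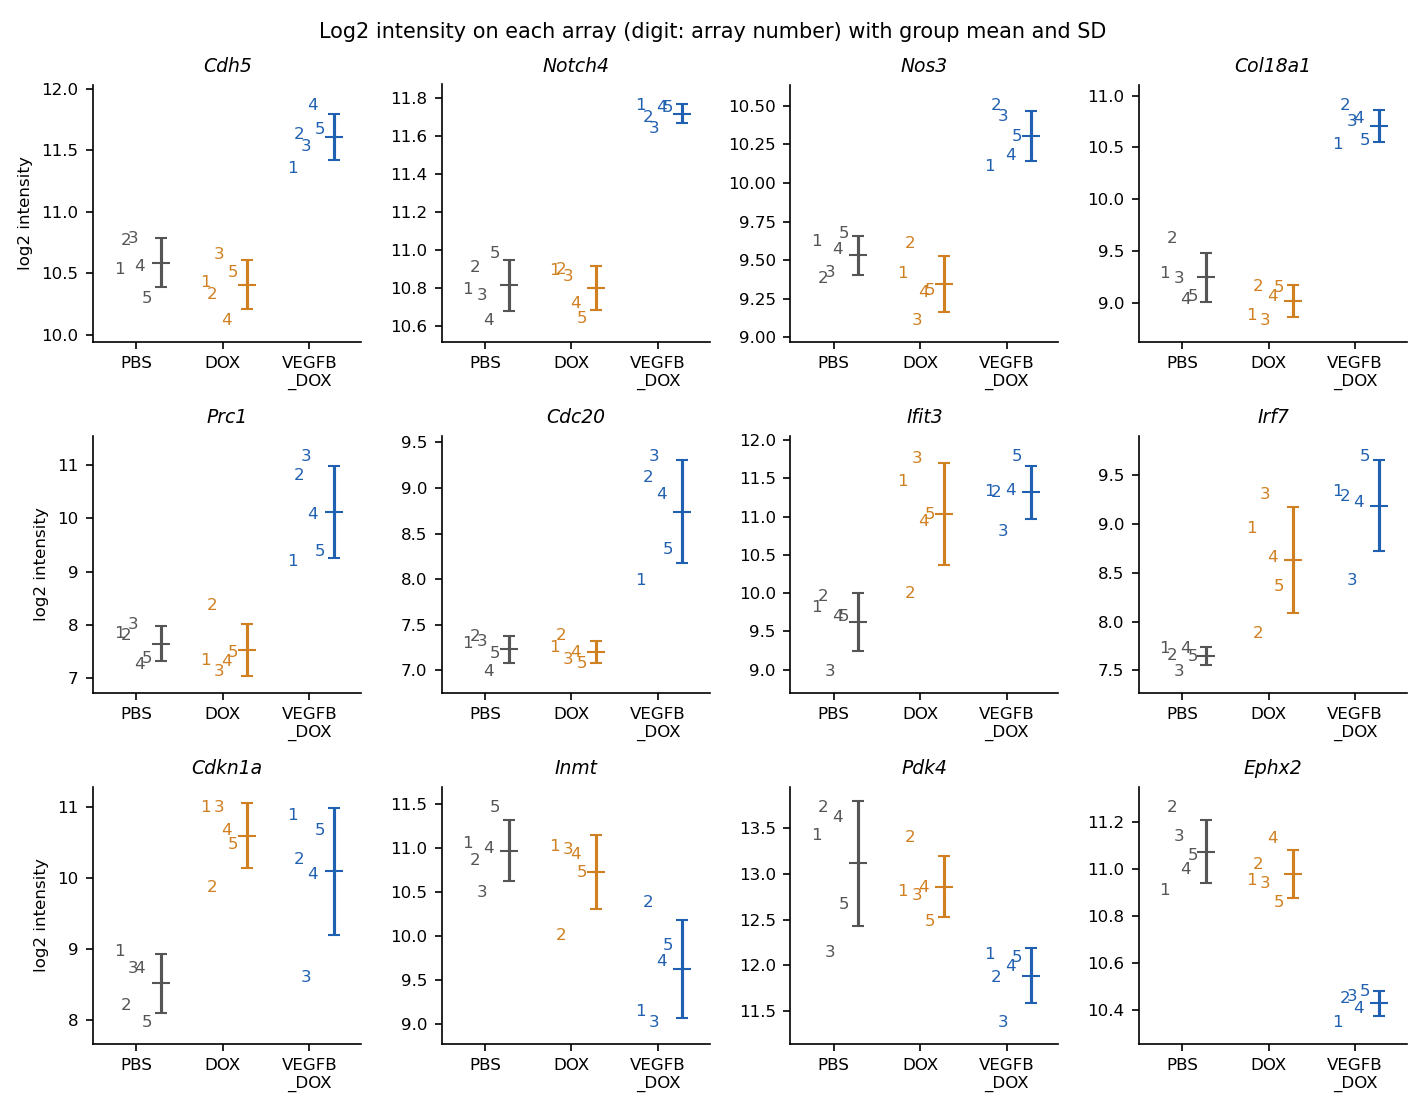
Log2 intensity (vertical axis) of 12 genes on each array of the PBS, DOX and VEGFB_DOX groups. Digits are array numbers, and the bar to the right of each group is its mean with the SD of 5 arrays. For Cdh5, Notch4, Nos3, Col18a1, Prc1, Cdc20 and Irf7 every VEGFB_DOX array lies above every PBS array, for Inmt, Pdk4 and Ephx2 below, and VEGFB_DOX 3 is the lowest of its group for Ifit3, Irf7, Cdkn1a, Inmt and Pdk4. Of these, Col18a1, Prc1, Cdc20, Ifit3, Irf7, Inmt and Pdk4 are among the largest rises and falls, for which non-overlap was a condition.

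Transcription factors that give endothelial cells their identity were among the genes that rose. Of 21 tested, 12 rose and none fell, with a median of 0.37. The SOX factor gene Sox18 read 9.54, 9.71, 9.64, 9.29 and 9.29 on PBS and 10.49, 10.44, 10.36, 10.41 and 10.22 on VEGFB_DOX arrays and rose by 0.89 ± 0.10 (limma, adjusted p = 1.72e-05). Sox7 rose by 0.78 ± 0.10, the ETS factor genes Ets1 by 0.81 ± 0.12 and Ets2 by 0.50 ± 0.07. In DOX minus PBS, Sox7 and Ets1 stood at -0.42 ± 0.10 and -0.39 ± 0.12 (adjusted p = 0.0925 and 0.188). A dim further probe of each disagreed, at -0.03 for Sox7 and 0.02 for Ets1, and the remaining probe of Sox7 rose by 0.65 ± 0.09.

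Of 18 tested genes of tip cells and sprouting, 11 rose and none fell, with a median of 0.38. Without PBS 4, PBS 5, DOX 5 and VEGFB_DOX 5 the count was 7. Aplnr, the receptor of apelin on growing vessels, read 10.73, 10.62, 10.63, 10.56 and 10.39 on PBS and 11.57, 11.56, 11.67, 11.67 and 11.75 on VEGFB_DOX arrays. The VEGFB_DOX values of Aplnr spanned 0.19 and lay above all PBS values. Its rise was 1.06 ± 0.22 (adjusted p = 0.00358), and on DOX arrays it was spread from 8.85 to 10.69. Mcam, an adhesion molecule of vessel walls, read 9.89, 9.52, 9.34, 9.55 and 9.73 and 10.96, 11.10, 11.44, 10.47 and 10.46, in the same order. It rose by 1.28 ± 0.20 (adjusted p = 0.000416), and its other 2 probes by 1.03 ± 0.16 and 1.19 ± 0.19. Pdgfb, the growth factor by which endothelial cells recruit pericytes, rose by 0.64 ± 0.07, the matrix protease gene Adamts9 by 0.86 ± 0.12 and the semaphorin receptor gene Plxnd1 by 0.79 ± 0.15.

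Notch signalling, which sorts sprouting from resting endothelial cells and arteries from veins, gave 6 rises and no fall among 13 tested genes, with a median of 0.18. Notch4, the receptor of endothelial cells, read 10.79, 10.91, 10.76, 10.63 and 10.98 on PBS and 11.76, 11.70, 11.64, 11.75 and 11.75 on VEGFB_DOX arrays. The VEGFB_DOX values of Notch4 spanned 0.12 and lay 0.66 or more above PBS. Notch4 rose by 0.91 ± 0.08, or 1.87 times (adjusted p = 9.4e-07), and the Notch target gene Hey1 by 0.94 ± 0.11 (adjusted p = 1.72e-05). Notch1 rose by 0.68 ± 0.13 and the feedback inhibitor gene Nrarp by 0.60 ± 0.12.

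Genes by which the endothelium moves lipids and makes nitric oxide rose too: 12 of 20 tested, none lower, with a median of 0.47, although 1 was called lower without PBS 3, PBS 5 or VEGFB_DOX 3. The lowest member stood at -0.88, which was not called. The brightest, the lipoprotein lipase gene Lpl, stood at 0.01 ± 0.13 (adjusted p = 0.982). Gpihbp1, which carries lipoprotein lipase across the capillary wall, read 10.50, 10.67, 10.27, 10.52 and 10.60 on PBS and 11.33, 11.43, 11.33, 11.39 and 11.36 on VEGFB_DOX arrays and rose by 0.86 ± 0.09 (adjusted p = 1.07e-05). Nos3, the endothelial nitric oxide synthase, rose by 0.77 ± 0.10, and its other 2 probes by 0.75 ± 0.07 and 0.79 ± 0.10. Nostrin, which encodes a protein that binds the synthase, rose by 1.14 ± 0.15. Cav1, the coat protein of caveolae, rose by 0.86 ± 0.12 and the caveolar gene Cavin3 by 0.72 ± 0.09. Of 21 BMP and TGF-beta signalling genes 7 rose and 1 fell (2 without PBS 1), with a median of 0.14. Eng, a co-receptor on endothelial cells, rose by 0.70 ± 0.08, Id1, a target of BMP signals, by 0.69 ± 0.11, the receptor gene Tgfbr2 by 0.56 ± 0.08 and the latent TGF-beta binding gene Ltbp4 by 0.59 ± 0.09. Of 23 ephrin, semaphorin, netrin and slit genes, guidance cues that vessels share with nerves, 10 rose and none fell. Sema7a rose by 0.89 ± 0.10, Sema3f by 0.77 ± 0.08, the venous receptor gene Ephb4 by 0.69 ± 0.08 and Robo4 by 0.63 ± 0.08.

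The basement membrane, the sheet of matrix beneath endothelium and around muscle fibres, was among the lists with the highest median difference. Of 18 tested genes 11 rose and none fell, with a median of 0.69, and the count was 11 in each fit without 1 array. Col18a1, a collagen of vascular basement membranes, read 9.28, 9.62, 9.23, 9.03 and 9.06 on PBS and 10.53, 10.90, 10.75, 10.78 and 10.57 on VEGFB_DOX arrays. The lowest VEGFB_DOX array stood 0.91 above the highest PBS array. Col18a1 rose by 1.46 ± 0.11, or 2.75 times (limma, adjusted p = 5.66e-07), and a dim further probe by 0.19 ± 0.05. Nid2 and Nid1, whose nidogens link laminin to collagen IV, rose by 1.26 ± 0.11 and 0.78 ± 0.09. Col4a1 and Col4a2, the chains of collagen IV, rose by 1.01 ± 0.12 and 0.96 ± 0.11 from PBS levels of 12.67 ± 0.13 and 12.34 ± 0.03 (SD, n = 5). Sparc, a protein that binds collagen, read 10.44, 10.32, 9.90, 10.10 and 10.48 on PBS and 11.81, 11.61, 11.87, 11.33 and 11.36 on VEGFB_DOX arrays. It rose by 1.35 ± 0.16 and by 1.33 on each of its other 2 probes. The fibronectin gene Fn1 rose by 1.02 ± 0.10 on its brighter probe, and its dim probe did not pass at 0.20 ± 0.07 (adjusted p = 0.0532).

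Of 21 interstitial matrix and fibrosis genes 11 rose and none fell, with a median of 0.40. The count was 8 to 13 in fits without 1 array, lowest without VEGFB_DOX 1. The membrane protease gene Mmp14 rose by 0.83 ± 0.11, the proteoglycan gene Bgn by 0.70 ± 0.10 and the elastin gene Eln by 0.81 ± 0.14. Mmp2, the gelatinase that MMP14 activates, rose by 0.99 ± 0.17 (adjusted p = 0.000794), although VEGFB_DOX 3, at 10.89, lay within the PBS range. It stood at 0.51 ± 0.17 in DOX minus PBS (adjusted p = 0.252). Markers of the cells around vessels moved less as lists. Among 15 markers of pericytes and smooth muscle 4 rose and 1 fell, with a median of 0.17. The pericyte genes Higd1b and Pdgfrb rose by 0.66 ± 0.09 and 0.47 ± 0.08, the smooth muscle myosin gene Myh11 fell by 0.53 ± 0.12, and Acta2 stood at 0.15 ± 0.15 (adjusted p = 0.625). Their summed signal was 22270 to 27370 on PBS and 23770 to 28500 on VEGFB_DOX arrays, and Cnn1 was above background on no array. Of 21 fibroblast markers 7 rose and 1 fell (2 without PBS 5 or VEGFB_DOX 4), with a median of 0.02 and a summed signal of 28700 to 32090 on PBS and 34040 to 37870 on VEGFB_DOX arrays. The list did not move as one: 12 markers stood above 0 and 9 below, the lowest at -0.37. The risers included Vim, the vimentin gene that endothelial cells share with fibroblasts, at 1.45 ± 0.11 (2.73 times, adjusted p = 6.25e-07), the imprinted gene Mest at 1.40 ± 0.16, the surface protein gene Thy1 at 0.99 ± 0.15 and Tcf4 at 0.53 ± 0.07. Vim read 9.92, 9.86, 9.94, 9.83 and 10.21 on PBS and 11.44, 11.55, 11.74, 11.10 and 11.18 on VEGFB_DOX arrays, and its difference in DOX minus PBS was -0.08 ± 0.11. What part cell numbers had in these changes was not tested. Of 22 actin, tubulin and migration genes 11 rose and none fell, with a median of 0.48, among them the thymosin genes Tmsb10 (1.01 ± 0.10) and Tmsb4x (0.50 ± 0.08) and Anxa2 (0.79 ± 0.09), a membrane-binding annexin.

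Cell division genes held the largest single rise. Of 25 tested genes of mitosis and cytokinesis 21 rose and none fell, with a median of 0.83. The list has 38 genes on the arrays, and those not tested were too dim for the filter. A probe could pass that filter through the 5 VEGFB_DOX arrays alone, so the count and median hold only for the tested genes. Kif2c and Top2a each lay above background on 2 PBS and 5 VEGFB_DOX arrays. The promoter sequences of 4 mitosis genes are shown. Genes of this kind often carry a cell cycle homology region (CHR, letters TTTGAA) and a CCAAT box near their start. Each stretch runs from 160 bases before to 30 after the start of the gene in RefSeq (GRCm38.p6), 5′ to 3′ on the strand of the gene, with every TTTGAA or CCAAT in capitals, or the reverse complement TTCAAA or ATTGG.
Prc1 (chr7:80294291-80294480, plus strand): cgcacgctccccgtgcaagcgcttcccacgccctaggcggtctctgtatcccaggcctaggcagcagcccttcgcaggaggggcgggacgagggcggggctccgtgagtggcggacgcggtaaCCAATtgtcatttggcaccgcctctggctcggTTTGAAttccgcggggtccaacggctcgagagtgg
Kif23 (chr9:61946770-61946959, minus strand): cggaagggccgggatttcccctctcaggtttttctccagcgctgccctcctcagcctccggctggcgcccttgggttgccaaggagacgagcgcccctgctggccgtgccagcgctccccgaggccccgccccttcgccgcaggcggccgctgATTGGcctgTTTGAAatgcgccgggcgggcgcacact
Cdc20 (chr4:118437314-118437503, minus strand): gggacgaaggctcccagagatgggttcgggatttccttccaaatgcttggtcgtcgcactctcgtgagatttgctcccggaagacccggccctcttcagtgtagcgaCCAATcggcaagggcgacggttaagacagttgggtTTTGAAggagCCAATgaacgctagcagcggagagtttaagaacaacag
Kif22 (chr7:127042391-127042580, minus strand): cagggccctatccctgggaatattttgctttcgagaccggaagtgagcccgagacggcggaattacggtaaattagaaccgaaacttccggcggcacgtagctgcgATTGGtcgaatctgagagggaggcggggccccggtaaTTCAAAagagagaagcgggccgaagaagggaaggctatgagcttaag
TTTGAA on either strand occurred within 250 bases before to 50 after the start in 18 of the 21 list genes with an entry, against 18.1% of all 27025 promoters in the table and 12.4% of those of tested genes. CCAAT occurred in 15 of the 21, against 37.9% of all promoters. A match is a description of these letters and not of a bound factor.

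Prc1, which bundles the microtubules of the dividing spindle, lies on chromosome 7. It read 7.83, 7.80, 8.0, 7.25 and 7.36 on PBS and 9.19, 10.81, 11.15, 10.07 and 9.38 on VEGFB_DOX arrays. The groups did not overlap, and the VEGFB_DOX arrays spread widely, with VEGFB_DOX 3 at the top and VEGFB_DOX 1 at the bottom. Prc1 rose by 2.47 ± 0.31, or 5.55 times (limma, adjusted p = 4.28e-05), and stood at -0.12 ± 0.31 in DOX minus PBS (adjusted p = 0.945). Cdc20, the activator of the anaphase-promoting complex, read 7.29, 7.37, 7.32, 6.99 and 7.18 on PBS and 7.99, 9.11, 9.34, 8.93 and 8.33 on VEGFB_DOX arrays. The order of the arrays was that of Prc1, again with VEGFB_DOX 3 highest. It rose by 1.51 ± 0.18 (adjusted p = 2.7e-05), and 2 of its 3 other probes rose, by 0.89 and 0.84, while the dimmest stood at 0.07. Kif23, the kinesin of the midzone complex that drives cytokinesis, rose by 1.54 ± 0.29 on 1 probe, by 0.97 on a dimmer one and by 0.32 on its brightest. The chromosome-bound kinesin gene Kif22 rose by 1.34 ± 0.21, the topoisomerase gene Top2a by 1.05 ± 0.15 and Kif2c, a kinesin that takes microtubules apart, by 0.58 ± 0.08. Top2a and Kif2c were near background in PBS hearts, at 6.92 ± 0.09 and 6.89 ± 0.12 (SD, n = 5), so on this scale their folds understate the change.

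The list mean of mitosis genes was 1.43 on VEGFB_DOX 3, and 0.34, 0.99, 0.73 and 0.45 on VEGFB_DOX 1, 2, 4 and 5. It was -0.06 to 0.06 on PBS and -0.14 to 0.13 on DOX arrays, where DOX 2 was the highest. Each VEGFB_DOX array thus lay above all arrays of the other groups. The mean covers only the tested genes, and a probe could pass the filter through the VEGFB_DOX arrays alone. This separation therefore holds only for the tested genes and is no separate support. The count of 21 stayed at 21 without DOX 2 and VEGFB_DOX 3 and was 20 without the 4 arrays set apart by the second component. Of 30 genes of DNA replication and the G1/S step 6 rose and 1 fell, with a median of 0.31. Neither value was stable. The count of rises was 12 without VEGFB_DOX 5, 3 with only the 2 groups compared and 4 to 9 in the other fits without 1 array, and the fall was not called in 7 of these fits. Without VEGFB_DOX 3 the median was 0.12. Ccnd1, the cyclin of early G1, read 11.25, 11.08, 11.13, 10.53 and 10.71 on PBS and 11.45, 11.91, 12.48, 11.84 and 11.57 on VEGFB_DOX arrays and rose by 0.91 ± 0.18 (adjusted p = 0.0022). Uhrf1, which copies DNA methylation marks in S phase, rose by 1.13 ± 0.29 and the thymidylate synthase gene Tyms by 0.55 ± 0.14, both highest on VEGFB_DOX 3, at 9.96 and 8.41 against 7.33 to 8.35 on the other 4. The replication list mean was 0.91 on VEGFB_DOX 3 and 0.08 to 0.24 on the other 4.

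Targets of p53, the response to DNA damage, divided the VEGFB_DOX hearts. Of 29 tested, 7 rose and 1 fell, with a median of 0.16. The count was 13 without VEGFB_DOX 3, also when DOX 2 was left out with it, and 4 without any 1 of PBS 4, VEGFB_DOX 1, VEGFB_DOX 2 and VEGFB_DOX 5. It was 3 without the 4 arrays of the second component. Cdkn1a, which encodes the cell cycle inhibitor p21, read 8.97, 8.20, 8.73, 8.73 and 7.97 on PBS and 10.89, 10.27, 8.60, 10.05 and 10.67 on VEGFB_DOX arrays. On 4 VEGFB_DOX arrays it lay above every PBS array, and on VEGFB_DOX 3 within the PBS range. Its rise was 1.58 ± 0.33 (limma, adjusted p = 0.00368), beside 2.08 ± 0.33 in DOX minus PBS (adjusted p = 0.0106), and without the 4 arrays of the second component it was 1.32 (adjusted p = 0.0523). Phlda3, a p53 target that restrains AKT, rose by 0.83 ± 0.15, beside 0.77 ± 0.15 in DOX minus PBS, and the kinase gene Plk2 rose by 0.49 ± 0.09, beside -0.03 ± 0.09. The p53 list mean was -0.07 on VEGFB_DOX 3 and 0.24 to 0.47 on the other 4 VEGFB_DOX arrays, and it ran from 0.32 to 0.52 on DOX 1, 3, 4 and 5 with 0.04 on DOX 2. Among the VEGFB_DOX arrays, the one with the highest mitosis mean had the lowest p53 mean. Haemoglobin and other erythroid genes followed the same arrays: their list mean was 0.23 on both VEGFB_DOX 3 and DOX 2, while DOX 1, 3, 4 and 5 lay at -0.63 to -0.31 and VEGFB_DOX 1, 2, 4 and 5 at -0.74 to -0.48. The summed signal of the 7 erythroid genes, each above background on some array, was 45570 to 62540 on PBS and 20650 to 58650 on VEGFB_DOX arrays. The part of blood in the tissue in these differences was not tested.

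Of 18 BCL2 family and cell death genes 6 rose and 1 fell, with a median of 0.16, and the count of rises was 3 without PBS 1, PBS 4 or VEGFB_DOX 2, and without the 4 arrays of the second component. Casp8, the initiator caspase of death receptors, rose by 0.66 ± 0.08 (adjusted p = 2.02e-05), Mlkl, the effector of necroptosis, by 0.74 ± 0.09 and Apaf1, the core of the apoptosome, by 0.63 ± 0.08. Their values in DOX minus PBS were -0.15 ± 0.08, 0.20 ± 0.09 and 0.11 ± 0.08 (adjusted p = 0.514, 0.414 and 0.71). Bik, a killer member of the BCL2 family, fell by 0.55 ± 0.11.

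Interferon-stimulated genes gave the highest share of calls among the lists. Of 28 tested genes of the type I interferon response 25 rose and none fell, with a median of 0.90, and the count ran from 25 to 26 in fits without 1 array. The promoters of the leading gene Ifit3 and of Rsad2 are shown over the same window. The pattern of interferon-response elements, GAAA followed by any 2 bases and GAAA again, stands in capitals in them as its reverse complement, with TTTC before and after the 2 bases.
Ifit3 (chr19:34583369-34583558, plus strand): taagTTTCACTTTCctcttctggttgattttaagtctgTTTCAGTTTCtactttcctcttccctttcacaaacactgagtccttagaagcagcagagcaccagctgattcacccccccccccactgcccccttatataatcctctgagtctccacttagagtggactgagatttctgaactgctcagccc
Rsad2 (chr12:26456423-26456612, minus strand): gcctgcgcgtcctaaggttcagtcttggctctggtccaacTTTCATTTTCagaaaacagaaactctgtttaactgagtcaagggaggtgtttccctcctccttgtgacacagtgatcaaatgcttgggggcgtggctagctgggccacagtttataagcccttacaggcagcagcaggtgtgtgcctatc
The pattern occurred on either strand in 8 of the 18 interferon genes with an entry, against 3.49% of all promoters and 3.03% of those of tested genes.

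Ifit3, a member of the IFIT family of antiviral proteins, read 9.81, 9.96, 8.98, 9.70 and 9.69 on PBS and 11.33, 11.32, 10.81, 11.34 and 11.78 on VEGFB_DOX arrays. The groups did not overlap, and VEGFB_DOX 3 was the lowest of its group. It rose by 1.69 ± 0.25, or 3.22 times (limma, adjusted p = 0.000242), beside 1.41 ± 0.25 in DOX minus PBS (adjusted p = 0.0283). Irf7, the factor that amplifies interferon production, read 7.72, 7.65, 7.49, 7.72 and 7.64 on PBS and 9.34, 9.28, 8.42, 9.22 and 9.69 on VEGFB_DOX arrays. It rose by 1.55 ± 0.22 (adjusted p = 0.000146), beside 0.99 ± 0.22 in DOX minus PBS (adjusted p = 0.0607). The PBS values of Irf7 lay in a narrow band, while the VEGFB_DOX values ran from 8.42 on VEGFB_DOX 3 to 9.69 on VEGFB_DOX 5. Oasl2 rose by 1.44 ± 0.21, Usp18, the protease that ends interferon signalling, by 1.42 ± 0.17 and Rsad2, which encodes the antiviral enzyme viperin, by 1.36 ± 0.16. In DOX minus PBS these stood at 1.31 ± 0.21, 1.06 ± 0.17 and 0.68 ± 0.16 (adjusted p = 0.0123, 0.0142 and 0.084).

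Some interferon genes were higher in VEGFB_DOX than in DOX hearts. Lgals3bp, a secreted glycoprotein of innate defence, read 10.29, 10.18, 9.65, 10.03 and 9.95 on PBS and 11.40, 11.35, 11.27, 11.29 and 11.46 on VEGFB_DOX arrays. The VEGFB_DOX values of Lgals3bp spanned 0.19. It rose by 1.33 ± 0.11 against PBS (adjusted p = 6.41e-07) and by 0.75 ± 0.11 against DOX (adjusted p = 0.000111). Ifitm1 and Ifitm3, membrane proteins that stop viruses from entering cells, rose by 1.20 ± 0.11 and 1.02 ± 0.10 against PBS and by 0.46 ± 0.11 and 0.38 ± 0.10 against DOX (adjusted p = 0.0109 and 0.0176). Rsad2 was higher than in DOX by 0.68 ± 0.16 (adjusted p = 0.0108), whereas Ifit3, Oasl2 and Usp18 stood at 0.28 ± 0.25, 0.14 ± 0.21 and 0.37 ± 0.17 (adjusted p = 0.59, 0.78 and 0.227). The list mean was 0.62 on VEGFB_DOX 3 and 0.89 to 1.12 on the other 4 VEGFB_DOX arrays, while DOX 2 stood at 0.23 and the remaining DOX arrays at 0.60 to 0.96.

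Of 13 genes in the list of guanylate-binding and immunity-related GTPases, 8 rose and none fell, with a median of 0.47. Many of these genes are induced by interferon gamma, and the list also holds Cxcl9 and Irf1, which encode no such GTPase. The count of rises was 5 without PBS 5 or without the 4 arrays of the second component. Gbp3 rose by 1.17 ± 0.18, the T cell chemokine gene Cxcl9 by 0.67 ± 0.11 and the transcription factor gene Irf1 by 0.56 ± 0.11. Of 17 genes of MHC class I and the immunoproteasome 9 rose and none fell, with a median of 0.35. B2m, the light chain of class I molecules, read 12.98, 13.05, 12.58, 12.77 and 12.59 on PBS and 13.52, 13.56, 13.39, 13.72 and 13.67 on VEGFB_DOX arrays and rose by 0.78 ± 0.12 (adjusted p = 0.000281), beside 0.20 ± 0.12 in DOX minus PBS (adjusted p = 0.603). The class I gene H2-D1 rose by 0.83 ± 0.09, H2-T23 by 0.77 ± 0.15 and the immunoproteasome subunit gene Psmb9 by 0.71 ± 0.10. None of 8 MHC class II genes was called by limma, also in fits without 1 array, and 1 had an unadjusted p under 0.05. With only the 2 groups compared 2 were called lower, H2-Ab1 among them (adjusted p = 0.0473). Their median was -0.13, and the brightest members, H2-Ab1 and Cd74, stood at -0.36 ± 0.18 and -0.25 ± 0.19 (adjusted p = 0.242 and 0.47).

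Markers of immune cells were dim beside those of the tissue. Of 21 macrophage markers 9 rose and none fell, with a median of 0.34, and 3 rose without the 4 arrays of the second component. Their summed signal was 8041 to 11200 on PBS, 9782 to 10780 on DOX and 10020 to 15100 on VEGFB_DOX arrays, so the groups overlapped, and every marker was above background on some array. C1qb, the complement subunit of tissue macrophages, rose by 0.71 ± 0.13 and the Fc receptor chain gene Fcer1g by 0.66 ± 0.13 (limma, adjusted p = 0.00145 and 0.00242), both with values that overlapped between the groups. Trem2, a lipid receptor of macrophages, rose by 0.34 ± 0.07. Of 9 tested neutrophil markers S100a8 and S100a9, the subunits of calprotectin, rose, by 0.78 ± 0.18 and 0.83 ± 0.18, beside 1.18 ± 0.18 and 1.34 ± 0.18 in DOX minus PBS. The call of S100a8 ended without the 4 arrays of the second component (0.76, adjusted p = 0.0664). Their PBS levels of 6.92 ± 0.14 and 6.96 ± 0.09 lay near background, and Ngp was above background on no array. Of 5 tested lymphocyte markers none was called by limma, and 2 had an unadjusted p under 0.05, while 1 was called without PBS 1. Among chemokines Ccl12, which attracts monocytes, read 8.29, 7.92, 8.08, 7.49 and 7.29 on PBS and 9.09, 9.29, 8.73, 9.06 and 9.35 on VEGFB_DOX arrays and rose by 1.29 ± 0.18 (adjusted p = 0.000137), beside 1.20 ± 0.18 in DOX minus PBS. The eosinophil chemokine gene Ccl11 fell by 0.45 ± 0.09 and Cxcl14 fell by 0.57 ± 0.13. The part of cell entry in the interferon and class I changes was not tested.

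Metabolic genes of heart muscle ran the other way. Of 24 tested genes of fatty acid oxidation 9 fell and none rose, where 5.87% of all tested genes fell, with a median of -0.22. The count was 12 without the 4 arrays of the second component, 8 without DOX 2 and VEGFB_DOX 3, and 6 to 10 in fits without 1 array. Eci1, an isomerase that prepares unsaturated fatty acids for oxidation, read 13, 12.82, 12.79, 12.79 and 12.73 on PBS and 12.46, 12.31, 12.46, 12.36 and 12.54 on VEGFB_DOX arrays. The groups did not overlap, and the difference of -0.40 ± 0.06 (limma, adjusted p = 0.0004) was a small one from a bright probe. Slc25a20, the carrier that brings acylcarnitines into mitochondria, fell by 0.30 ± 0.05, Cpt2, the enzyme behind it, by 0.28 ± 0.06, and Etfb, which passes the electrons of oxidation to the respiratory chain, by 0.28 ± 0.06.

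Of 20 PPAR target and lipid storage genes 8 fell and none rose, with a median of -0.27, although 1 rise was called without DOX 2, DOX 5 or VEGFB_DOX 4. Ephx2, the soluble epoxide hydrolase of lipid signalling, read 10.91, 11.26, 11.14, 11 and 11.06 on PBS and 10.35, 10.45, 10.46, 10.41 and 10.48 on VEGFB_DOX arrays. The VEGFB_DOX values of Ephx2 spanned 0.13 and lay below all PBS values. Ephx2 fell by 0.64 ± 0.07 (adjusted p = 1.64e-05) and stood at -0.09 ± 0.07 in DOX minus PBS (adjusted p = 0.731). Acot1, a thioesterase that splits fatty acyl-CoA, fell by 0.97 ± 0.19, with 1 VEGFB_DOX array inside the PBS range, and Slc27a1, a fatty acid transporter of the cell surface, fell by 0.59 ± 0.12. Of 15 regulators of oxidative metabolism 4 fell and 1 rose, with a median of -0.21, and no rise was called without VEGFB_DOX 1. The nuclear receptor genes Esrrg, Rxrg and Esrra fell by 0.49 ± 0.09, 0.44 ± 0.08 and 0.28 ± 0.07, and their values in DOX minus PBS were -0.19 ± 0.09, -0.11 ± 0.08 and -0.07 ± 0.07 (adjusted p = 0.485, 0.714 and 0.8).

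A kinase gene and a phosphatase gene that act on pyruvate dehydrogenase, the gate from glucose to the citric acid cycle, both fell. Pdk4, a kinase that shuts the gate, read 13.42, 13.72, 12.14, 13.62 and 12.67 on PBS and 12.12, 11.87, 11.38, 11.99 and 12.09 on VEGFB_DOX arrays. Every VEGFB_DOX array lay below every PBS array, by as little as 0.02 between VEGFB_DOX 1 and PBS 3. Pdk4 fell by 1.22 ± 0.25, or 2.34 times (adjusted p = 0.00286), and stood at -0.25 ± 0.25 in DOX minus PBS (adjusted p = 0.795). Pdp2, a phosphatase that opens the gate, read 9.58, 9.63, 9.41, 9.75 and 9.55 on PBS and 8.50, 8.61, 9.02, 8.91 and 8.66 on VEGFB_DOX arrays, without overlap. It fell by 0.84 ± 0.10 (adjusted p = 3.07e-05) and stood at -0.38 ± 0.10 in DOX minus PBS (adjusted p = 0.134). Of 26 genes of glucose uptake, glycolysis and pyruvate dehydrogenase 5 fell and none rose, with a median of -0.11. The count was 3 without PBS 1, PBS 4, PBS 5 or VEGFB_DOX 1, and without the 4 arrays of the second component. Fbp2, the fructose bisphosphatase of muscle, fell by 0.65 ± 0.10, while Gapdh stood at 0.07 ± 0.06 (adjusted p = 0.551). Downstream the calls were fewer, where 5.87% of all tested genes fell. Of 18 citric acid cycle genes 2 fell (11.1%), among them Idh3a (-0.24 ± 0.06). Their count was 1 to 4 in fits without 1 array (1 without PBS 4 and 4 without PBS 2). Of 33 genes of the respiratory chain and ATP synthase 1 fell (3.03%), a share below that of all genes, and the median was -0.07. That single call ended without PBS 2, PBS 3, VEGFB_DOX 1, VEGFB_DOX 2 or VEGFB_DOX 3.

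Genes of calcium handling and excitation held more falls than the contractile genes of the muscle. Of 26 genes of calcium handling and excitation 5 fell (19.2%) and 1 rose (3.85%), with a median of -0.19. Of all tested genes 5.87% fell and 8.74% rose. The rise was not called without PBS 4, PBS 5, VEGFB_DOX 1, VEGFB_DOX 2 or VEGFB_DOX 4, or without DOX 2 and VEGFB_DOX 3, where 8 genes fell. Hrc, a calcium-binding protein of the sarcoplasmic reticulum, fell by 0.34 ± 0.07, and Asph, a gene of the same membrane, by 0.57 ± 0.12 on its brightest probe, while its other 7 probes did not pass, at -0.24 to 0.09. The potassium channel gene Kcnd2 fell by 0.73 ± 0.18, beside -0.64 ± 0.18 in DOX minus PBS (adjusted p = 0.14). Of 24 sarcomere and Z-disc genes 2 rose and 2 fell, 8.33% each way, near the shares of all tested genes (8.74% higher and 5.87% lower). No rise was called without PBS 4, and no fall without PBS 4, PBS 5, VEGFB_DOX 1, VEGFB_DOX 2 or VEGFB_DOX 4. The bright muscle genes Actc1 and Mb stood at 0.10 ± 0.07 and 0.12 ± 0.08 (adjusted p = 0.439 and 0.422).

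The largest fall of all was that of Inmt, a methyltransferase of small amines. It read 11.05, 10.86, 10.50, 11 and 11.46 on PBS and 9.14, 10.38, 9.02, 9.71 and 9.89 on VEGFB_DOX arrays, and the groups did not overlap. It fell by 1.35 ± 0.24, or 2.54 times (limma, adjusted p = 0.000994), its other probe by 1.13 ± 0.20, and it stood at -0.24 ± 0.24 in DOX minus PBS (adjusted p = 0.8). Tmem82 fell by 0.95 ± 0.14, Lrg1, a secreted glycoprotein that acts on vessels, by 0.88 ± 0.15, the muscle protease gene Ky by 0.84 ± 0.11, the muscle taxilin gene Txlnb by 0.82 ± 0.14, the reticulon gene Rtn2 by 0.79 ± 0.10, and Prr29, the neurotensin receptor gene Ntsr2 and the mitochondrial carrier gene Slc25a34 by 0.75 to 0.79. A brighter probe of Txlnb fell by 0.55 ± 0.10. Tbc1d10c, a Rab regulator, fell by 0.92 ± 0.13 on 1 probe and not on its other, which stood at -0.02.

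For some genes the DOX hearts differed from PBS by a like amount, although not every such difference passed the test. Dnaaf3, an assembly factor of ciliary dynein, read 8.94, 8.64, 8.84, 8.74 and 8.86 on PBS and 7.71, 7.78, 8.34, 7.90 and 7.80 on VEGFB_DOX arrays and fell by 0.90 ± 0.13 (adjusted p = 0.000197). It stood at -0.94 ± 0.13 in DOX minus PBS (adjusted p = 0.00921) and at 0.04 ± 0.13 in VEGFB_DOX minus DOX. The integrin subunit gene Itgb6 fell by 0.81 ± 0.19, beside -0.81 ± 0.19 (adjusted p = 0.084), and the cytokine gene Ctf1, cardiotrophin 1, by 0.49 ± 0.09, beside -0.51 ± 0.09 (adjusted p = 0.0142). The sodium channel subunit gene Scn4b fell by 0.74 ± 0.20, beside -0.73 ± 0.20 (adjusted p = 0.13). Its call ended without PBS 1 (-0.62, adjusted p = 0.0509), and its other probe stood at -0.03.

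Among the remaining lists, single genes moved. Sgk1, a kinase induced by serum and glucocorticoids, read 12.16, 12.01, 11.94, 12.31 and 11.97 on PBS and 13.30, 13.02, 12.52, 12.96 and 13.05 on VEGFB_DOX arrays and rose by 0.89 ± 0.12 (limma, adjusted p = 5.6e-05), while its DOX difference from PBS was 0.15 ± 0.12 (adjusted p = 0.731). The atrophy ligase gene Trim63 fell by 0.45 ± 0.10, the chaperone gene Hsph1 by 0.74 ± 0.15, and the stress-induced gene Ndrg1 rose by 0.55 ± 0.09. The senescence-associated secreted gene Igfbp7, also made by vessels, rose by 0.58 ± 0.11 and the ribosomal protein gene Rpl3 by 0.58 ± 0.07. None of 22 proteasome genes was called by limma, also in each fit without 1 array, 3 had an unadjusted p under 0.05, and 1 was called lower with array weights or without a variance trend. Of 7 erythroid genes the 3 haemoglobin genes fell, Hba-a1 by 0.87 ± 0.24 and Hbb-bs by 0.81 ± 0.24 (adjusted p = 0.0227 and 0.0325). Further probes of Hbb-bs were called at -0.90 to -0.79, and another, at -0.76, was not. Further probes of Hbb-bt were called at -0.91 and -0.97, and another, at -0.78, was not. Since the haemoglobin genes exist as near-identical copies, signal may be shared between their probes. The erythroid count was 0 without PBS 1, VEGFB_DOX 1, VEGFB_DOX 2 or VEGFB_DOX 4, 1 without PBS 3 or PBS 4, and 0 with a robust variance prior and without the 4 arrays of the second component. The groups overlapped for all 3, and VEGFB_DOX 3 lay in the PBS range for Hba-a1 and Hbb-bs.

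Some genes named above as called have further probes that did not pass. Of those with PBS means of 7.42 to 12.49, the probe of Cpt2 stood at -0.23, Esrra at -0.23, Hbb-bs at -0.76, Idh3a at -0.07, Ifitm1 at 0.27, Nid1 at 0.18, Ltbp4 at 0.25, H2-D1 at 0.31 and Ccnd1 at 0.25. Near background, with PBS means of 6.80 to 7.15, further probes of Cmya5, Egfl7, Irf1, Mmp14, Oasl2, Robo4, Tcf4, Tgfbr2, Tmsb10 and Tyms stood at -0.01 to 0.19.

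**Figure D3:**
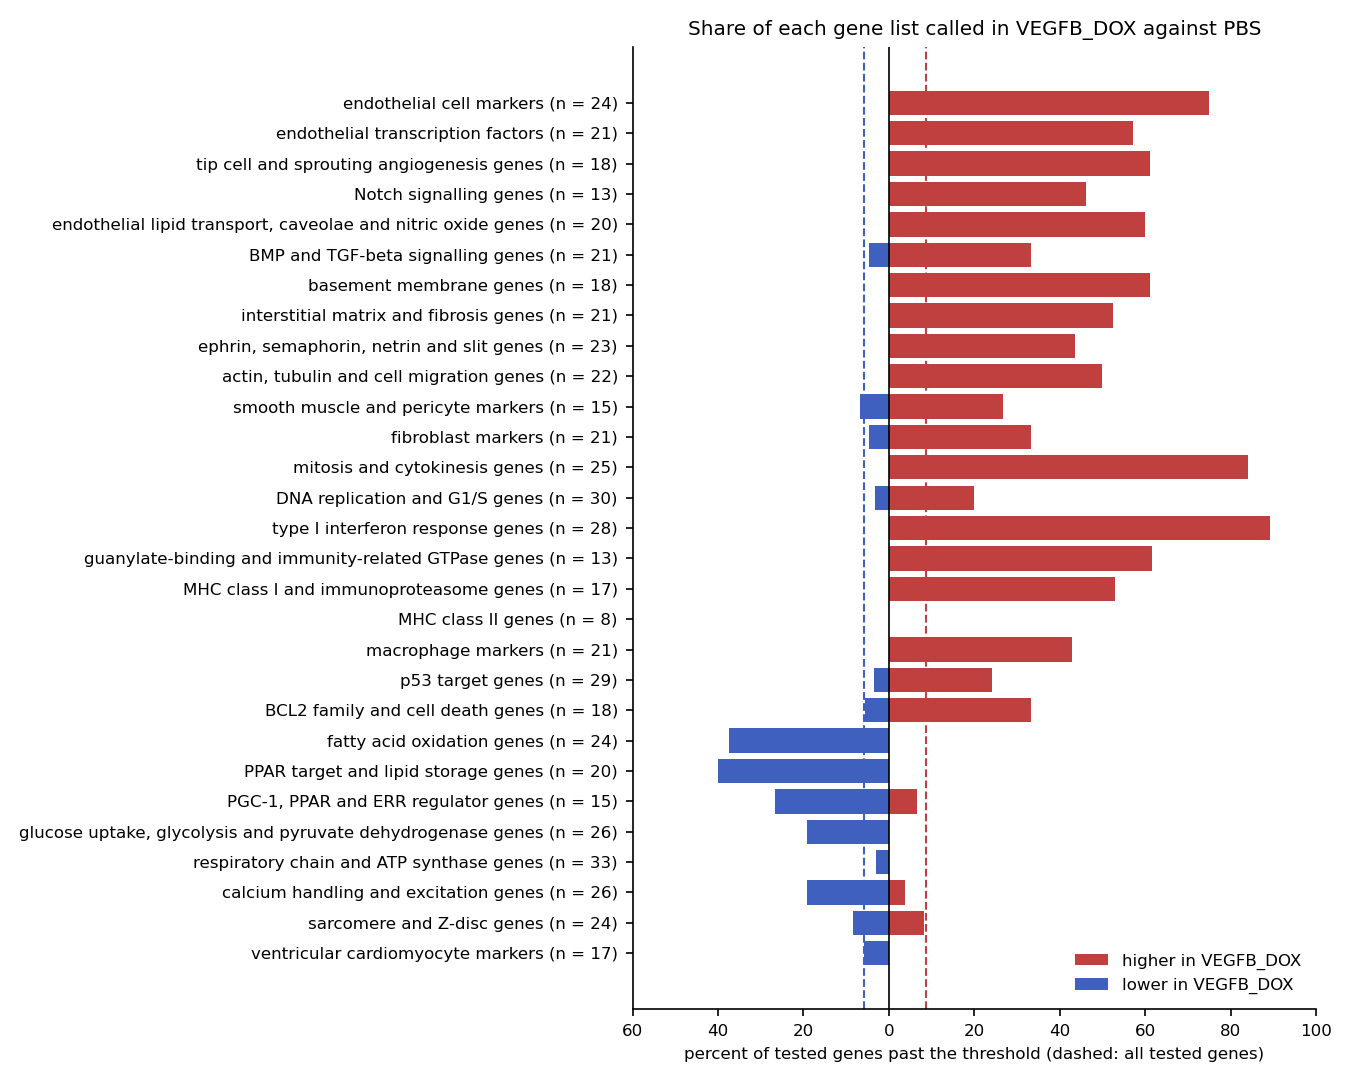
Percent of the tested genes of selected lists that passed the threshold in VEGFB_DOX against PBS, higher to the right and lower to the left. Dashed lines mark the shares over all tested genes, 8.74% and 5.87%, and n is the number of tested genes. Among the lists plotted, interferon, mitosis and endothelial marker lists reach furthest to the right, and PPAR target and fatty acid oxidation lists furthest to the left.

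**Figure D4:**
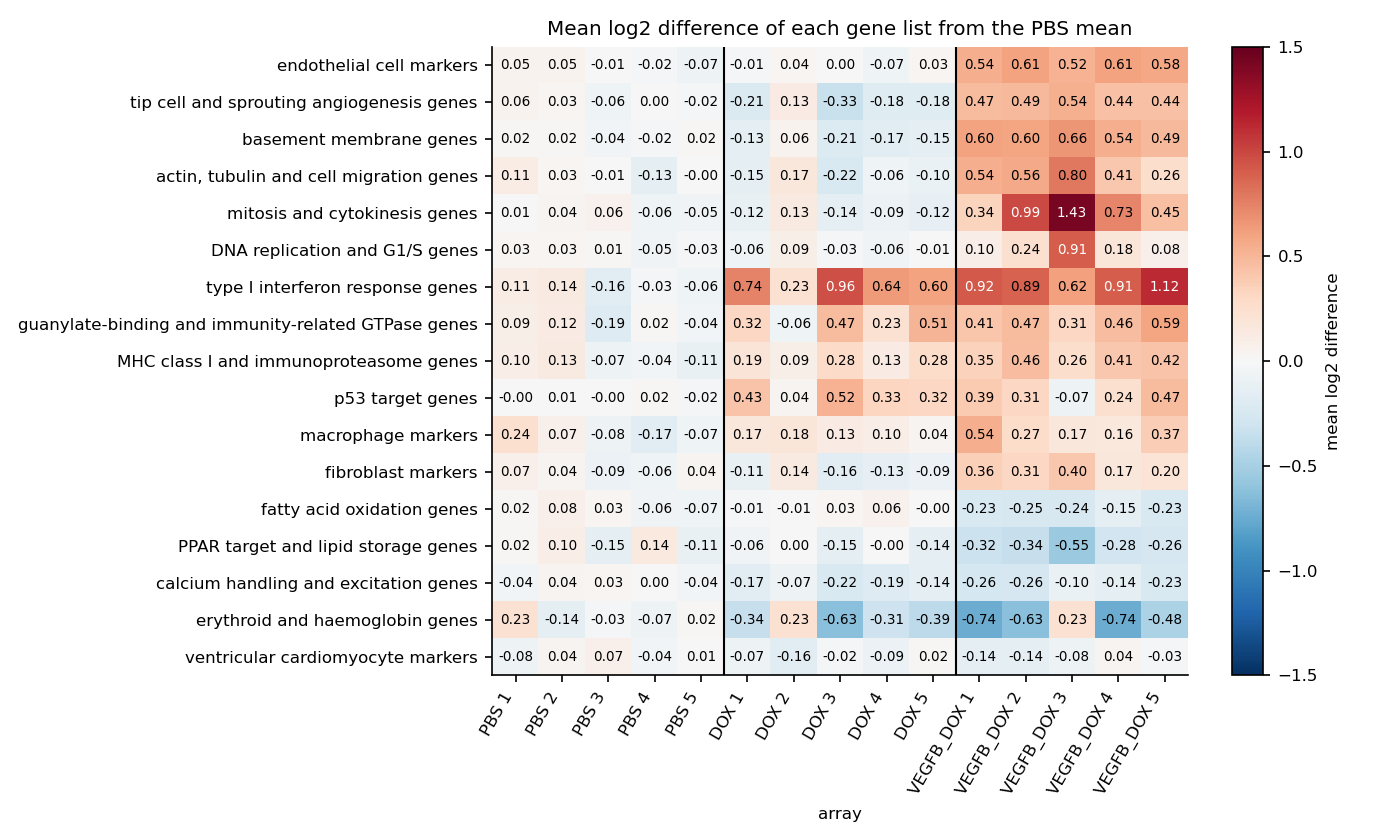
Mean log2 difference of 17 gene lists from their PBS mean (colour and number) on each of the 15 arrays (columns). Endothelial, tip cell and basement membrane lists are raised on all 5 VEGFB_DOX arrays, and the interferon list also on the 5 DOX arrays, least on DOX 2 (0.23). VEGFB_DOX 3 holds the highest mitosis mean, 1.43, and the lowest p53 mean, -0.07.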

How the data were processed

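Per the labels' protocols, RNA of myocardium was purified and converted to biotin-labelled cRNA for Illumina BeadChips, 1 array a sample. The authors deposited the values as log2 intensities. That scale, and quantile normalization, were read from the values: sorted columns differ by at most 0.01, the median is 6.92 and the range 6.52 to 14.93. The software behind them is not given in the sources used here. Quantile normalization makes all arrays share 1 distribution, so a shift of all genes would not be seen, and the number of arrays limits the precision. A table of 15 further columns, whose names match no sample's labels, was not used.

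Of 45281 probes, 34885 carry 1 gene symbol in the platform annotation, 18 several and 10378 none, and none of the last 2 kinds was named. The background peak lay at 6.80 (SD 0.0693), and probes above 6.914, the limit under which 95% of such a background lies, on at least 5 arrays were tested. Limma 3.58.1 in R 4.3.3 fitted 1 mean for each of the 3 groups (12 residual degrees of freedom) with a variance trend, and p-values were adjusted over all 24861 tested probes. Named are the VEGF genes, the 15 largest rises and falls without overlap whose higher group lay wholly above background, and in each gene list up to 4 members of smallest p and the 2 brightest. Members and lists were chosen with earlier results of these data known. The test was checked on simulated data with independent noise for each probe. These held no effect shared by the probes of an array, so the check cannot show how such effects bear on the calls.

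Replicate numbers were not taken to pair the samples, since not every same-numbered pair correlated above 0.1: deviations from the group means correlated at -0.412 to 0.32 between PBS and VEGFB_DOX, -0.173 to 0.409 between PBS and DOX and -0.248 to 0.631 between DOX and VEGFB_DOX. Number 5 gave the highest value in each, and number 1 lay at 0.148 to 0.334. Nothing in the labels ties the 5 samples of a group to separate days or batches. The arrays set apart by the second component are, however, the last in the order of the series, and the fit held no term for this order. The p-values measure the spread between these samples. Alternatives were the filter, cyclic loess, array weights, variance settings, a replicate block, the 2 groups alone and fits without arrays. Promoters came from a RefSeq table (GRCm38.p6).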

Additional observations from a re-analysis of the deposited data

Results flagged for a closer look

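In a group of 5, an array was singled out where its gap to the nearest other array exceeded Dixon's 95% limit for the range. Chance gives about 1 in 20 such cases. Among the named genes there were 16 in 290 gene and group pairs (5.52%), and among the means of gene lists 11 in 120 (9.17%).

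VEGFB_DOX 3 gave 4 of the 16. It was high for Tyms (8.41) and Mlkl (8.54) and low for Aqp1 (12.51) and H2-T23 (9.66). Among the list means it was high for DNA replication (0.905) and erythroid genes (0.233) and low for glucocorticoid-responsive genes (-0.214).

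Of the other VEGFB_DOX arrays, VEGFB_DOX 1 was low for Txlnb (8.44) and high for S100a9 (8.57), VEGFB_DOX 4 was high for Cpt2 (12.94) and VEGFB_DOX 5 for Kdr (7.09), while VEGFB_DOX 5 was low for Nrp2 (7.05). For list means, VEGFB_DOX 5 was low for Notch (0.237) and the citric acid cycle (-0.297) and high for Schwann cell and neuron markers (-0.035), VEGFB_DOX 2 was high for lymphocyte markers (0.147), and VEGFB_DOX 4 was the highest for fatty acid oxidation (-0.15).

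Among PBS arrays, PBS 1 was low for Hey1 (9.31) and high for Tyms (7.25), PBS 2 was high for Prr29 (8.58), and PBS 3 was low for Ifit3 (8.98). PBS 5 was high for Vim (10.21) and Apaf1 (8.63) and low for Esrra (11.15). For list means, PBS 1 was high for chemokines (0.191) and scavengers of reactive oxygen (0.057), and PBS 2 was low for integrins (-0.017).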

How the results depend on the processing

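Of 145 named probes, 128 of the 136 called were called under every alternative setting that tested them, and no call changed sign. There were 26 settings, of which 25 tested Kif2c. Of the 9 not called, 3 passed under some setting (Nrp1, Aqp1 and H2-Ab1). The count of called probes was 2336 to 3681 in 9 fits of other settings, 8 of them on all arrays and 1 on the 2 groups and 2008 to 2946 in fits without 1 array (higher 1324 to 1714, lower 684 to 1288). The lower calls were more than 1.5 times below 1170 without VEGFB_DOX 2 (684), VEGFB_DOX 1 (711) or PBS 4 (748). Cyclic loess moved the share of higher among all calls from 58.8% to 68.7% (1873 higher and 855 lower). The Vegfb call ended with cyclic loess (-0.15), without a filter on dim probes (-0.19), with only the 2 groups compared (-0.19), without DOX 2 and VEGFB_DOX 3 (-0.19) and without PBS 4, PBS 5, DOX 5 and VEGFB_DOX 5 (-0.16). Without 1 array it was -0.20 to -0.16. The causes were not tested. A fit with the replicate number as a block called 3135 probes (1805 higher and 1330 lower), against 2841 without it, and left the Vegfb value at -0.19. With the block 1 erythroid gene fell instead of 3, and the Hbb-bs call ended (adjusted p = 0.051). Array weights gave 12 rising p53 targets against 7, 9 falling calcium handling genes against 5, and 4 falling sarcomere genes against 2. Cyclic loess or no filter left 1 falling citric acid cycle gene and none of the respiratory chain. Probes near background have compressed folds, which limits the sizes given for dim genes.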
